A study of Drosophila melanogaster with 39 samples.

Results

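Piwi with 4 exchanged or altered specificity loops was examined through the small RNAs that it carried in cultured cells: the loop of Aub, the loop of HsAGO2, a form of the HsAGO2 loop with its final proline moved (HsAGO2 P>T), and the Piwi loop with asparagine replaced by proline (Piwi N>P). Each was sequenced in 1 library. These 4 libraries were chosen by their labels out of 20 libraries from ovarian somatic sheath cells (OSC) and 39 in the whole series, and were set against the 5 libraries of the natural loop (Piwi wt). All 9 came from OSC of 1 constant genetic background, a line of cultured somatic cells of the fly ovary. A plasmid outside the chromosomes, with the UASp promoter, gave transient expression of Piwi with an N-terminal 3×FLAG and 3×HA tag, and the tagged protein was collected with anti-FLAG beads before its small RNAs were cloned. The cells kept their own Piwi. The study describes 3 biological replicates behind its OSC means, and the labels do not mark them among these 5. They do not say whether wt replicates 1 to 5 came from separate transfections, so the spread of these may be technical in part.

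PIWI-interacting RNAs (piRNAs) are small RNAs that guide PIWI proteins to transposon transcripts and silence them. In the somatic cells of the fly ovary Piwi is the PIWI protein that carries them, and most are cut from long transcripts antisense to transposons. The first base of the piRNA sits in a pocket of the middle (MID) domain, and the specificity loop is the short stretch of protein that lines this pocket. Aub is a second fly PIWI protein that works in the cytoplasm of germ cells, whereas HsAGO2 is the human Argonaute that carries microRNAs and small interfering RNAs, which are shorter than piRNAs.

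The loops were written into the piwi coding sequence by designed mutagenesis primers. The piwi gene (FBgn0004872) lies at chr2L:10982205-10987420 on the minus strand of dm6 coordinates, close to aub (FBgn0000146) at chr2L:10997819-11001476. The 2 fly loops are given here as the primers build them, 5′ to 3′, with 6 bases of piwi on either side. The proline codons are in capitals, since the contrasts named below concern proline.
Piwi-SL(Aub): ctcgtacgctccCCCaacgaagaaagatac
Piwi-SL(Piwi N>P): ctcgtaCCCaatgatCCCgccgaaagatac
Both inserts are 18 bases, or 6 codons. That of Aub has 1 proline codon, at codon 3, and that of Piwi N>P has 2, at codons 1 and 4. The inserts of HsAGO2 and HsAGO2 P>T are 15 bases, or 5 codons, and have 2 proline codons each. The first proline is at codon 1 in both, whereas the second is at codon 5, the end of the loop, in HsAGO2 and at codon 4 in HsAGO2 P>T. In these primers codon 4 of HsAGO2 encodes threonine, and in the P>T form threonine is at codon 5, so the last 2 codons are exchanged and no proline is gained or lost. The written descriptions of both HsAGO2 loops in the primer list differ from what the primers encode at codon 2, so which loop the plasmids hold there is not settled. The 2 proline contrasts of the design are thus HsAGO2 against HsAGO2 P>T and Piwi N>P against wt.

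The 4 loop libraries were sequenced more deeply than any wt library. Raw reads numbered 72358519 for Aub, 77821659 for Piwi N>P, 22396334 for HsAGO2 and 32502045 for HsAGO2 P>T. In wt they numbered 10646672, 6336981, 10745821, 4120228 and 2861749 in replicates 1 to 5. At these depths counting error was small beside every spread given here: over the 4 shares of reads defined below, the widest exact Clopper-Pearson 95% interval reached 0.0635 percentage points to either side in the 9 libraries and 0.0224 in the 4 loop libraries. These intervals cover counting error only, as reads copied by PCR are not independent molecules. With 1 library per loop the difference between loops has no replicate check, and no test was run. Permuting 1 library among 6 could not give a one-sided p below 0.167.

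The wt libraries did not form 1 group, which bears on every comparison with them. In wt replicates 1 to 4 the most frequent length was 26 nt, and in wt replicate 5 it was 27 nt. Wt replicate 5 also had a mapped share of 82.6%, against 90.5% to 91.7% in the other 4, and was the shallowest library. The results below are therefore given against all 5 wt libraries, against replicates 1 to 4, and against replicate 5. Barcode numbers run from 77 to 80 in the 4 loop libraries (HsAGO2 77, HsAGO2 P>T 78, Piwi N>P 79, Aub 80) and are 75, 76, 77, 90 and 75 in wt replicates 1 to 5. The labels name no sequencing run or pool, so loop and run cannot be told apart.

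The labels of HsAGO2 and HsAGO2 P>T also conflict between the deposited tables. The mapping table gives 18059883 mapped reads for HsAGO2 and 26743393 for HsAGO2 P>T, and the lengths fit these totals, whereas the annotation table holds 26743393 reads in the row labelled HsAGO2 and 18059883 in that labelled HsAGO2 P>T. These 2 totals do not show which side is mislabelled, so either the annotation rows or the length and mapping columns may be exchanged. Other annotation rows also differ in total from the library they name, as given with the annotation below. Lengths and mapping are given below by the labels of their own tables. Ranges over the 4 loops hold either way, whereas every direction between HsAGO2 and HsAGO2 P>T would turn if those columns are the exchanged ones.

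All 4 loops carried small RNAs of piRNA length, and their reads were longer and more narrowly spread in length than those of wt. Over reads of 20 to 30 nt the mean length was 26.96 nt for Aub, 26.89 nt for Piwi N>P, 26.97 nt for HsAGO2 and 26.94 nt for HsAGO2 P>T. In wt it was 25.77, 25.70, 25.87, 24.89 and 26.76 nt in replicates 1 to 5, or 25.8 nt ± 0.666 (SD, n = 5). The 4 loops were thus close to each other and above every wt library. They were 1.09 to 1.17 nt above the wt mean, which is 1.64 to 1.76 wt SDs, but only 0.129 to 0.208 nt above wt replicate 5. Among the 11 other OSC libraries the mean length ran from 23.76 to 26.76 nt. The SD of read length within a library was 1.34 nt for Aub, 1.36 nt for Piwi N>P, 1.52 nt for HsAGO2 and 1.43 nt for HsAGO2 P>T. In wt it ranged from 1.6 nt in replicate 5 to 2.15 nt in replicate 4.

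**Figure D1:**
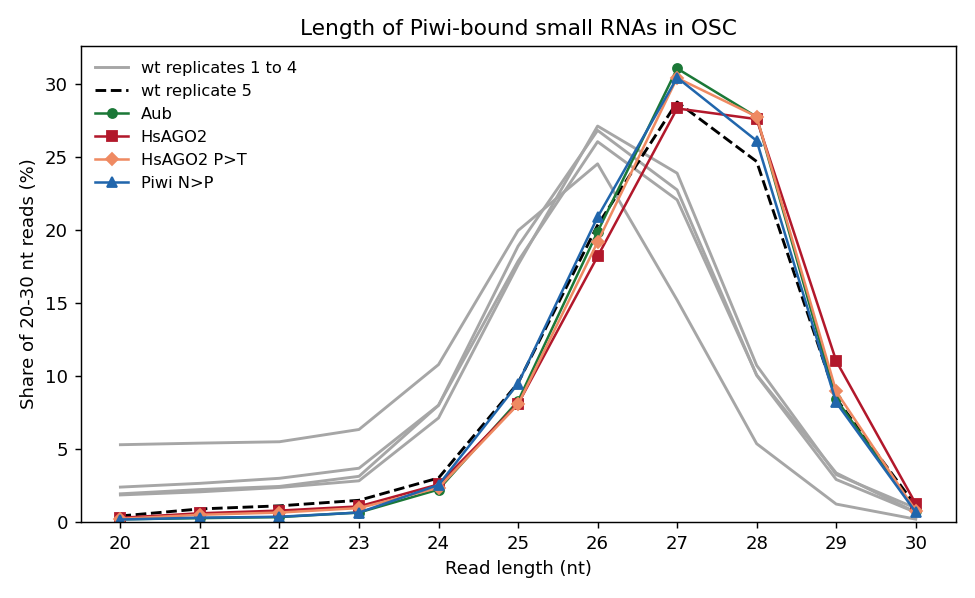
Share of the 20-30 nt reads (y axis, %) at each read length (x axis, nt) in the 4 loop libraries (coloured lines with markers), wt replicates 1 to 4 (grey) and wt replicate 5 (black, dashed), 1 line per library. The loops and wt replicate 5 peak at 27 nt and wt replicates 1 to 4 at 26 nt.

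The most frequent length was 27 nt for all 4 loops. It was also 27 nt in replicate 3 of Piwi-SL(GSS), a synthetic loop of glycine and serine, where the mean length was 26.76 nt. Reads of 27 nt made up 31.1% for Aub, 30.5% for Piwi N>P, 28.4% for HsAGO2 and 30.4% for HsAGO2 P>T, against 15.2% to 23.9% in wt replicates 1 to 4 and 28.8% in replicate 5. Reads of 28 nt made up 27.8%, 26.1%, 27.6% and 27.8% in the same order. Here wt replicates 1 to 4 had 5.38% to 10.7% and replicate 5 had 24.7%, so the 4 loops were above every wt library. The balance turned between 26 and 28 nt: there were 1.39 reads of 28 nt for each of 26 nt for Aub, 1.25 for Piwi N>P, 1.52 for HsAGO2 and 1.45 for HsAGO2 P>T, whereas the 4 first wt replicates had 0.219 to 0.396 and replicate 5 had 1.21. Taken as a class, reads of 27 to 30 nt were 68.0% for Aub, 65.5% for Piwi N>P, 68.3% for HsAGO2 and 68.0% for HsAGO2 P>T. The wt libraries had 36.4%, 36.2%, 38.9%, 22.1% and 63.1%, or 39.3% ± 14.8 (SD, n = 5). The loops were thus 26.1 to 28.9 percentage points above the wt mean and 2.39 to 5.19 above replicate 5. Among the 11 other OSC libraries this share ran from 11.4% to 58.6%. The highest was replicate 3 of Piwi-SL(GSS), with 1.01 reads of 28 nt for each of 26 nt.

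The short end of the profile, where small interfering RNAs of 21 nt would lie, was lowest in the 4 loop libraries. Reads of 20 to 23 nt made up 1.50% for Aub, 1.54% for Piwi N>P, 2.80% for HsAGO2 and 2.38% for HsAGO2 P>T. In wt replicates 1 to 5 they made up 9.79%, 11.8%, 9.17%, 22.6% and 3.97%, or 11.5% ± 6.86 (SD, n = 5). All 4 loops were below every wt library, Aub at 0.379 times and HsAGO2 at 0.705 times the share of replicate 5. At 21 nt alone the shares were 0.281% for Aub, 0.312% for Piwi N>P, 0.615% for HsAGO2 and 0.512% for HsAGO2 P>T, against 0.911% to 5.42% in wt. The libraries of HsAGO2 and HsAGO2 P>T thus had a larger share of 20 to 23 nt reads than those of Aub and Piwi N>P, and a smaller share than any wt library. With 1 library per loop, a link to the loop was not tested. Among the 11 other OSC libraries the share of 20 to 23 nt reads ran from 6.17% to 44.1%.

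Length by length, the 4 loops were below wt at the short lengths and above it at 28 nt. Of 11 lengths from 20 to 30 nt, Aub was above all 5 wt libraries at 2 and below them all at 7. HsAGO2 and HsAGO2 P>T were each above at 3 and below at 7, and Piwi N>P was above at 2 and below at 6. The lengths from 20 to 25 nt were below the wt range in all 4, and 28 nt was the 1 length at which all 4 were above it. Aub and Piwi N>P were also above it at 27 nt, HsAGO2 P>T at 27 and 29 nt, and HsAGO2 at 29 and 30 nt, with 27 nt inside the range. Piwi N>P was inside it at 26 nt, with 20.9% against 20.4% in wt replicate 5. Without wt replicate 5 the counts were 3 above and 7 below for Aub, Piwi N>P and HsAGO2 P>T, and 4 above and 7 below for HsAGO2. Adjacent lengths share 1 total and 1 library, so these counts are no set of independent results.

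The library labelled HsAGO2 had more reads at the long end than the other 3 loops, a place that HsAGO2 P>T would take if the columns are exchanged. Reads of 29 nt made up 11.1% for HsAGO2, 8.96% for HsAGO2 P>T, 8.43% for Aub and 8.20% for Piwi N>P, and 1.24% to 8.47% in wt. Reads of 30 nt made up 1.27% for HsAGO2, above the wt range of 0.212% to 1.13%, whereas Aub (0.757%), Piwi N>P (0.686%) and HsAGO2 P>T (0.784%) lay inside it. For each read of 28 nt HsAGO2 had 0.40 reads of 29 nt. The other loops had 0.304 (Aub), 0.322 (HsAGO2 P>T) and 0.314 (Piwi N>P), inside the wt range of 0.231 to 0.343. Among the 11 other OSC libraries this ratio ran from 0.0864 to 0.652. It was highest in replicate 3 of Piwi-SL(GSS), where 12.2% of reads were 29 nt and 7.04% were 30 nt, so this trait was not particular to HsAGO2.

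To compare whole profiles, the absolute differences between the shares of 2 libraries were added over the 11 lengths and divided by 2, which gives the percentage points of reads that would have to change length to turn one profile into the other. The 4 loops were 1.58 to 6.21 percentage points apart over their 6 pairs. Aub and HsAGO2 P>T were nearest, at 1.58, and HsAGO2 and Piwi N>P farthest. Wt replicate 5 was 3.65 from Piwi N>P, 5.22 from HsAGO2 P>T, 5.35 from Aub and 5.62 from HsAGO2. Wt replicates 1 to 4 were 26.9 to 46.2 away from the loops and 24.2 to 41.0 away from wt replicate 5. Among wt replicates 1 to 3 the distance was 2.49 to 3.84, and wt replicate 4 was 15.7 to 19.4 from these. The distance between wt libraries was thus up to 41.0, larger than any between 2 of the 4 loops. Of the 11 other OSC libraries, replicate 3 of Piwi-SL(GSS) was nearest to each of the 4 loops, at 16.6 to 20.9.

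**Figure D2:**
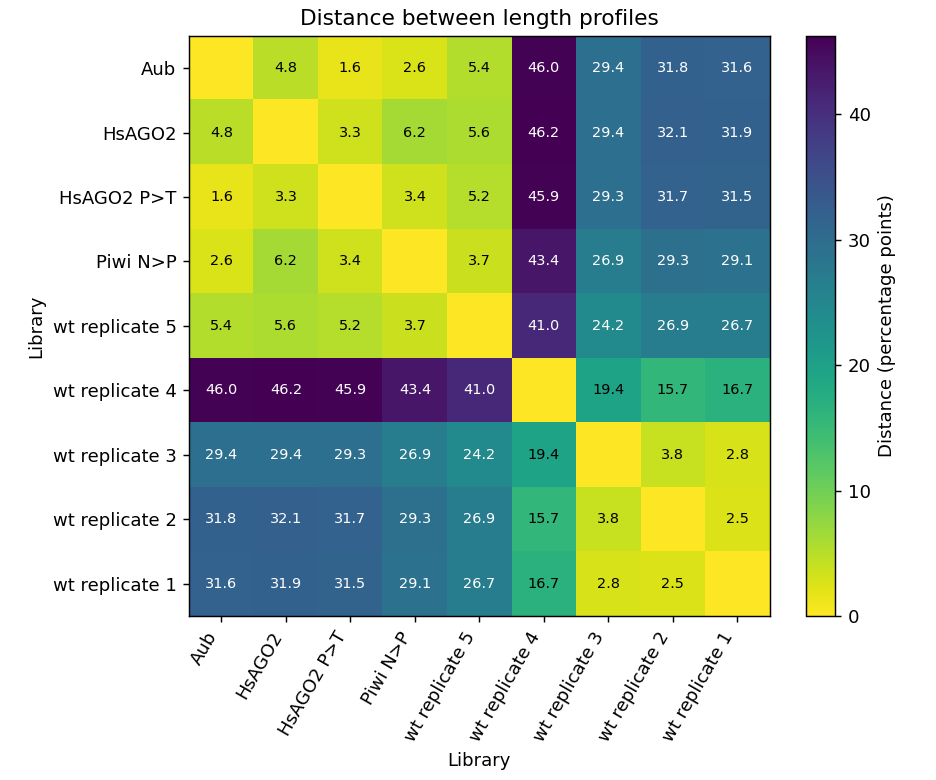
Distance between the length profiles of 2 libraries (colour and printed value, percentage points), with the 9 libraries on both axes. The 4 loops and wt replicate 5 form a block of 1.6 to 6.2, and wt replicates 1 to 4 are 24.2 to 46.2 from it.

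The profiles of wt replicates 1 to 4 came nearer to the loops when moved by 1 nt to longer lengths. Compared in this way over 21 to 30 nt, HsAGO2 was 7.21, 8.89, 6.19 and 22 percentage points from wt replicates 1 to 4, where the profiles as deposited had been 31.9, 32.1, 29.4 and 46.2 apart. For Piwi N>P the values were 10.1, 12.6, 10.6 and 20.6 against 29.1, 29.3, 26.9 and 43.4. Moving wt replicate 5 in the same manner took it away from every loop, to 22.8 for HsAGO2 and 28.7 for Piwi N>P. What lies behind the step of 1 nt was not tested.

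A smaller share of raw reads mapped for the 4 loops than in wt replicates 1 to 4, and about the same share as in replicate 5. All mappers (M ≤ 100), that is reads with 1 to 100 sites in the genome, were 84.1% of raw reads for Aub, 83.4% for Piwi N>P, 80.6% for HsAGO2 and 82.3% for HsAGO2 P>T. In wt replicates 1 to 5 they were 91.0%, 90.5%, 91.2%, 91.7% and 82.6%, or 89.4% ± 3.82 (SD, n = 5). HsAGO2 and HsAGO2 P>T were below the whole wt range, whereas Aub and Piwi N>P were inside it only through replicate 5. The 11 other OSC libraries had 22.1% to 91.8%, with 73.8% in replicate 3 of Piwi-SL(GSS). Differences from the wt mean were −5.27 percentage points for Aub, −6.0 for Piwi N>P, −8.74 for HsAGO2 and −7.10 for HsAGO2 P>T, and against wt replicate 5 they were 1.51, 0.79, −1.96 and −0.31.

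Unique mappers were 33.4% of mapped reads for Aub, 32.7% for Piwi N>P, 34.4% for HsAGO2 and 33.3% for HsAGO2 P>T. In wt they were 35.1%, 35.9%, 33.8%, 34.2% and 32.6%, or 34.3% ± 1.26 (SD, n = 5). All 4 loops were inside the wt range, and HsAGO2 was inside that of replicates 1 to 4 also. Each loop was above all 11 other OSC libraries, which had 27.7% to 30.9%. Multimappers per unique mapper were 2.00 for Aub, 2.06 for Piwi N>P, 1.90 for HsAGO2 and 2.00 for HsAGO2 P>T, and 1.78 to 2.06 in wt. Reads with more than 100 sites were rare. In 1000000 raw reads there were 170 for Aub, 166 for Piwi N>P, 138 for HsAGO2 and 176 for HsAGO2 P>T, against 214 to 326 in wt replicates 1 to 4 and 165 in replicate 5, so that HsAGO2 was lowest.

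**Figure D3:**
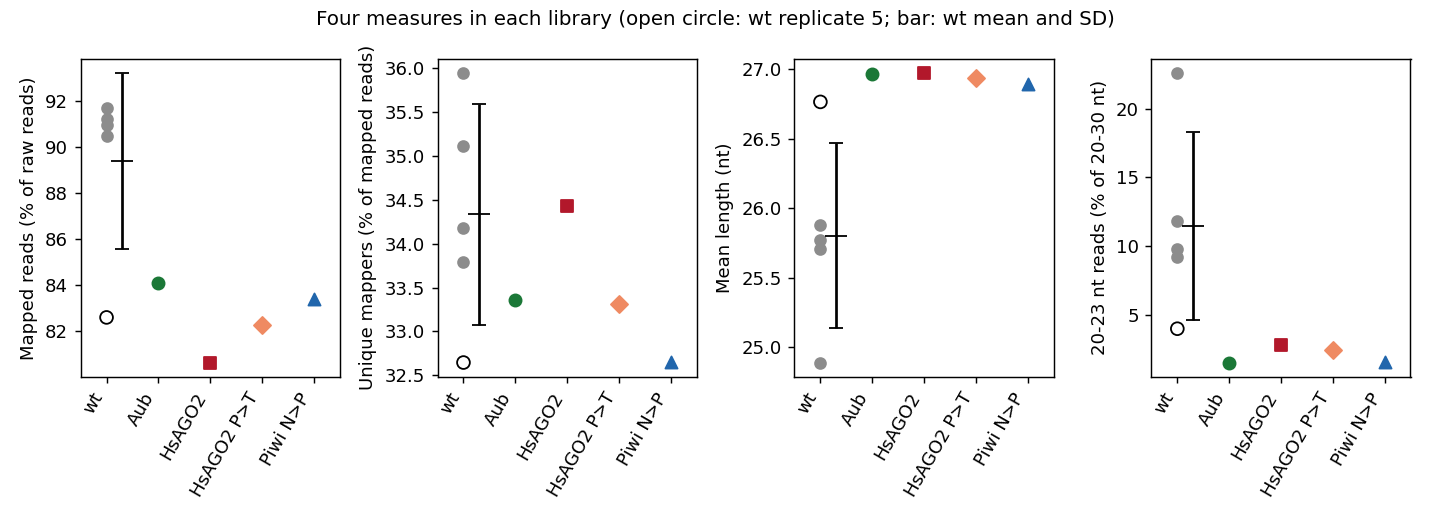
Mapped share, unique share, mean length and share of 20-23 nt reads (y axes, units as printed) in the wt libraries (grey points, open circle for replicate 5, bar for mean and SD of 5) and in the 4 loop libraries (1 coloured marker each); the y axes do not start at 0. Wt replicate 5 lies with the loops in mapped share and nearest to them in mean length and short reads.

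The libraries labelled HsAGO2 and HsAGO2 P>T differed little in length, and every signed difference here turns if their columns are exchanged. HsAGO2 minus HsAGO2 P>T was 0.0349 nt in mean length, or 0.0524 wt SDs, 0.307 percentage points in the 27 to 30 nt share and 0.416 percentage points in the 20 to 23 nt share. Their profiles were 3.26 percentage points apart, the 5th nearest of the 36 pairs that 9 libraries make. At 27 nt HsAGO2 had 28.4% and HsAGO2 P>T 30.4%, a difference of −2.09 percentage points, and at 29 nt it had 11.1% and 8.96%, a difference of 2.09. At 10 of the 11 lengths the difference was smaller than the SD of the 5 wt libraries. The exception was 30 nt, where HsAGO2 had 1.62 times the share of HsAGO2 P>T (1.27% and 0.784%) and the difference of 0.483 percentage points exceeded the wt SD of 0.349. The wt SD is widened by replicate 5, and against the SD of replicates 1 to 4 the difference was smaller at 9 of 11 lengths, with 29 nt (SD 0.991) as the further exception. The library labelled HsAGO2 P>T was nearer to Aub, at 1.58, than to the library labelled HsAGO2. The mapped share of HsAGO2 was lower by a difference of −1.64 percentage points and its unique share higher by 1.11, both smaller than 1 SD of the 5 wt libraries. Both were larger than the SD of replicates 1 to 4, which was 0.51 for mapped share and 0.968 for unique share. Beyond 1 SD of the 5 wt libraries were the reads of 29 nt per read of 28 nt (0.40 and 0.322, 1.76 wt SDs) and the share of mapped reads that were 20 to 30 nt long (91.6% and 92.7%, 1.86 wt SDs).

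**Figure D4:**
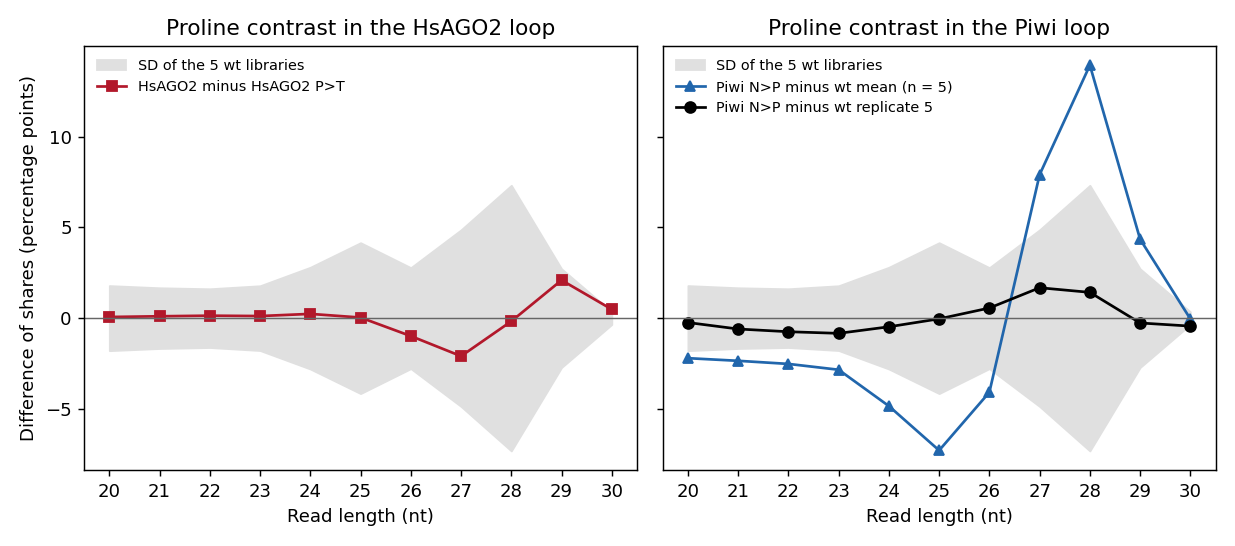
Difference in the share of reads (y axis, percentage points) at each read length (x axis, nt) for the proline contrast in the HsAGO2 loop (left) and in the Piwi loop (right), with the SD of the 5 wt libraries in grey. HsAGO2 minus HsAGO2 P>T leaves the grey band only at 30 nt, and Piwi N>P leaves it at 10 of 11 lengths against the wt mean but at 1 against wt replicate 5.

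For the Piwi loop, the size of the difference between Piwi N>P and wt depended on the wt library taken for comparison. Against the mean of 5 wt libraries Piwi N>P was 1.09 nt longer, had 26.1 percentage points more reads of 27 to 30 nt, and differed by more than 1 wt SD at 10 of 11 lengths. The largest differences were 13.9 percentage points at 28 nt, 7.91 at 27 nt and −7.29 at 25 nt. Against wt replicate 5 it was 0.129 nt longer and had 2.39 percentage points more reads of 27 to 30 nt. There the differences at the 11 lengths ran from −0.84 at 23 nt to 1.67 at 27 nt, and 10 of 11 were smaller than 1 wt SD. Piwi N>P and wt replicate 5 had nearly the same unique share (32.66% and 32.65%), and at 3.65 percentage points their profiles were the 7th nearest of the 36 pairs. Of the 4 loops Piwi N>P was the nearest to wt replicate 5.

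The source of the reads was deposited for 1 library per construct, as counts of reads antisense (as) or sense (s) to transposable elements (TE), exons and introns, and of the rest. The rows of HsAGO2 and HsAGO2 P>T are called by their labels here, since their totals are those of each other's library. The wt row, named as replicate 1, holds 9716686 reads and matches no wt library (replicate 1 has 9684039 mapped reads), whereas the rows of Aub (60859580) and Piwi N>P (64892223) equal their own mapped reads. The spread between wt libraries is thus unknown for annotation. The row of the loop-deficient Piwi-LD, named as replicate 1, holds 2736859 reads, which is the number mapped in Piwi-LD replicate 2.

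Reads antisense to transposons were the largest source for all 4 loops. They made up 63.8% for Aub, 64.5% for Piwi N>P, 63.2% in the row labelled HsAGO2 and 60.7% in that labelled HsAGO2 P>T, against 60.8% in the wt row. The rows of the 4 other loops (Ago3, GSS, AtAGO1 and AtAGO5) had 63.7% to 66.3%, all above the wt row, and Piwi-LD had 45.1%. For each sense read of transposons there were 12.7 antisense reads for Aub, 13.1 for Piwi N>P, 13.1 in the row labelled HsAGO2, 11.7 in that labelled HsAGO2 P>T and 12.3 in wt. Sense reads of transposons were 4.83% to 5.19% in the 4 loop rows and 4.95% in wt. With the labels as given, HsAGO2 minus HsAGO2 P>T was 2.49 percentage points in antisense transposon reads. If the rows are assigned by the mapped reads of the mapping table instead, it is −2.49, so the direction of this proline contrast cannot be read from the table. Piwi N>P minus wt was 3.67 percentage points. The difference from wt moved when reads outside transposons, exons and introns were left out: it went from −0.11 to 2.46 in the row labelled HsAGO2 P>T, from 2.38 to 4.70 in that labelled HsAGO2, and from 3.05 to 4.67 for Aub.

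Sense reads of exons, the strand of piRNAs that are cut from messenger RNAs, were fewer than in the wt row. They made up 10.4% for Aub, 9.94% for Piwi N>P, 9.85% in the row labelled HsAGO2 and 10.8% in that labelled HsAGO2 P>T, against 15.9% in wt. The 4 other loops (Ago3 and GSS, whose rows match no library, AtAGO1 and AtAGO5) had 10.2% to 11.9%, so the wt row stood apart from all 8 loops here rather than the 4 from the rest. Sense reads of introns went the other way. They made up 5.53% for Aub, 5.79% for Piwi N>P, 5.89% in the row labelled HsAGO2 and 6.26% in that labelled HsAGO2 P>T, above the wt row (4.44%) and above the 4 other loops (4.42% to 5.24%), though not above the loop-deficient Piwi-LD (7.58%). With Piwi-LD left out, this was the only one of 7 classes in which the 4 loop rows were all on 1 side of the other 5, and it holds with either assignment of the HsAGO2 rows. Sense reads of exons per sense read of introns were 1.88 for Aub, 1.72 for Piwi N>P, 1.67 and 1.73 in the rows labelled HsAGO2 and HsAGO2 P>T, and 3.57 in wt.

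Antisense reads of genes were few in every row, and the reads left over were more than in wt. Antisense reads of exons were 0.698% to 0.771% in the 4 loop rows and 0.875% in wt, and antisense reads of introns 2.30% to 2.53% and 2.55%. Reads outside transposons, exons and introns were 12.1% for Aub, 11.9% for Piwi N>P, 13.0% in the row labelled HsAGO2 and 13.8% in that labelled HsAGO2 P>T, against 10.5% in wt. The 4 other loops were above the wt row too, at 10.7% to 12.6%, and Piwi-LD had 33.0%. Measured over the 7 classes like the length profiles, the 4 loop rows were 0.896 to 3.78 percentage points apart, and 5.34 to 6.39 from the wt row. Aub and Piwi N>P were nearest to each other, at 0.896, and the row labelled HsAGO2 P>T was farthest from Piwi N>P. The 2 rows labelled HsAGO2 and HsAGO2 P>T were 2.54 apart. The rows of the 4 other loops (Ago3, GSS, AtAGO1 and AtAGO5) were 4.89 to 7.21 from the wt row and 0.977 to 5.87 from the 4 loop rows. The distance from the wt row was thus not particular to the 4.

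**Figure D5:**
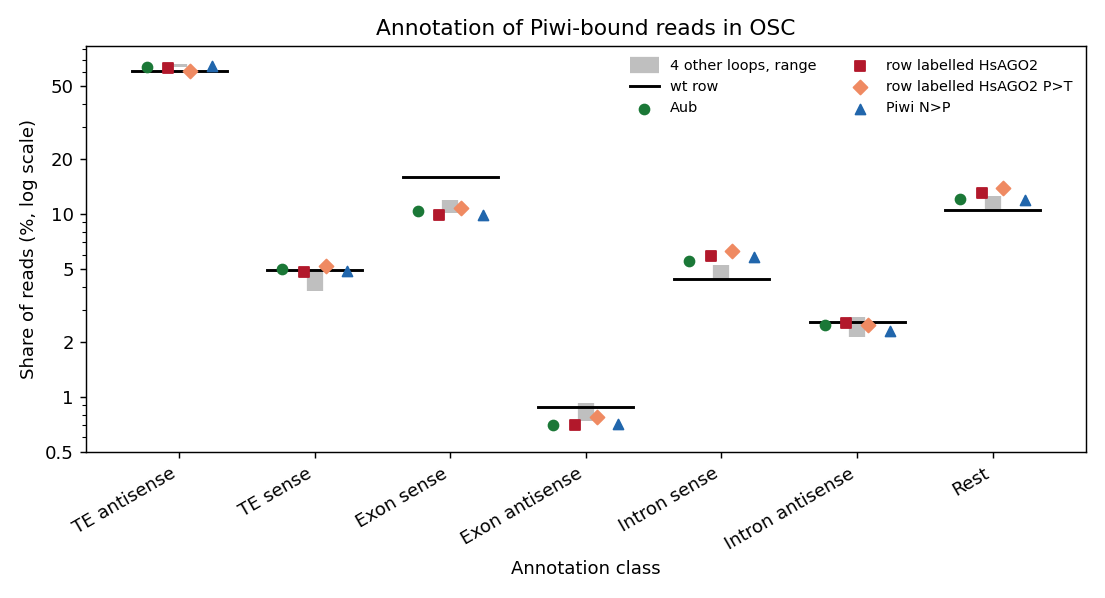
Share of reads (y axis, %, log scale) in each of 7 annotation classes (x axis) for the 4 loop rows (coloured markers, 1 row each, the HsAGO2 rows as labelled), the wt row (black line) and the range of the 4 other loops (grey bar). Exon sense reads are at 9.85% to 10.8% in the loop rows and 15.9% in wt, and intron sense reads at 5.53% to 6.26% and 4.44%.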

How the data were processed

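Per the study's methods, the authors trimmed adapters with cutadapt, removed reads of structural RNAs and mapped the rest to dm6 with STAR, the tools and build that the submitters' processing notes also name. The deposited values are whole-number counts per library: raw reads, unique mappers, multimappers (M ≤ 100 and above), unmapped reads, mapped reads by length from 20 to 30 nt, and mapped reads by 7 annotation classes for 1 library per construct. Removal of structural RNAs takes out microRNAs before mapping, which can lower the share of short reads. In the 9 libraries the unique mappers, multimappers and unmapped reads add up to the raw reads. Whether reads of structural RNAs were left out of the raw reads or counted as unmapped is not shown by these counts, and the mapped share depends on it. Reads of 20 to 30 nt were 91.6% to 94.5% of mapped reads in the 9 libraries, and the annotation counts reads of all mapped lengths.

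Shares, means and distances were computed from the counts with numpy 2.4.6, pandas 2.3.3, scipy 1.17.1 and Python 3.11.15, and figures drawn with matplotlib 3.10.9. Calculations were tested on simulated data. Groups came from the sample labels and 0 columns stayed unmatched. No gene was named by its values: all 4 loops, every length and all 7 classes are given, and other OSC libraries only as ranges or where nearest in length profile. The loops, measures and alternatives were chosen with earlier results of these data known. Alternatives were leaving out each wt library, summing wt libraries, other length windows, other denominators, a shift of 1 nt, and exchanged HsAGO2 rows or (added after seeing the data) columns. Chi-square values of length counts were at least 1856 per degree of freedom in all 36 pairs of the 9 libraries, so none was a repeat deposit. Primer sequences came from the study's primer list and gene positions from the Ensembl annotation (BDGP6.54, the coordinates of dm6). Ovary tables were not used here.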

Additional observations from a re-analysis of the deposited data

Results flagged for a closer look

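Wt replicate 5 lay far from the other 4 wt libraries in 4 of 22 measures examined, by the gap to its nearest neighbour as a share of the range of the 5 libraries. Chance marks about 1 in 20 such groups, and these measures come from the same reads. Its mapped share was 82.6%, with the nearest wt library at 90.5%. Reads of 25 nt were 9.54% there and 17.6% in the nearest, and reads of 28 nt were 24.7% and 10.7%. It had 1.21 reads of 28 nt for each of 26 nt, and the nearest had 0.396. In all 4 measures this library was closer to each of the 4 loop libraries than to any other wt library.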

How the results depend on the processing

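No paired analysis was possible because each loop has 1 library and its label carries no replicate number. Of 207 alternatives over 35 results, 190 moved the value by less than the spread used (the wt SD, or counting error for annotation). Leaving out each wt library in turn gave differences from the wt mean of −0.33 to 0.50 percentage points for the unique share of HsAGO2, below 0 without replicate 3 (−0.04) and replicate 5 (−0.33), and it kept the direction of the other differences. With wt libraries summed this difference was −0.12. As shares of raw reads, unique mappers differed from the wt mean by −2.66 (Aub), −3.48 (Piwi N>P), −2.95 (HsAGO2) and −3.30 (HsAGO2 P>T). With wt moved by 1 nt, the profile distance to the wt mean was 15.0 for Aub, 14.9 for Piwi N>P, 10.3 for HsAGO2 and 13.4 for HsAGO2 P>T. Without the reads outside transposons, exons and introns, antisense transposon reads differed from wt by 4.67 (Aub), 4.70 (row labelled HsAGO2), 2.46 (row labelled HsAGO2 P>T) and 5.22 (Piwi N>P), and between the HsAGO2 rows by 2.24. With the annotation rows exchanged, the differences were −0.11 for HsAGO2 and 2.38 for HsAGO2 P>T from wt, and −2.49 between them. With the length and mapping columns of these 2 libraries exchanged instead, an alternative chosen after seeing the data, HsAGO2 minus HsAGO2 P>T was 1.64 in mapped share, −1.11 in unique share, −0.035 nt in mean length, −0.31 in the 27 to 30 nt share and −0.42 in the 20 to 23 nt share, and the unique share differed from the wt mean by −1.02 for HsAGO2 and 0.093 for HsAGO2 P>T. Beyond what each setting recounts, the cause was not tested. Depth limits none of these values, and the single library per loop limits them all.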
